A study of Mus musculus with 6 samples.

Results

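The BAFF and APRIL system was followed in cultured mouse bone marrow cells with and without the cryptochromes. Its 5 genes are Tnfrsf13c, Tnfrsf13b and Tnfrsf17, which encode the receptors BAFF-R, TACI and BCMA, and Tnfsf13b and Tnfsf13, which encode the ligands BAFF and APRIL. Probe sets were taken by gene symbol, and a probe set counted only where the array's gene table listed it with that symbol alone. This gave 6 probe sets of 4 genes, out of 18193 genes measured by such probe sets. Tnfrsf13c, Tnfrsf13b and Tnfrsf17 had 1 probe set each and Tnfsf13b had 3. Tnfsf13 shared its 1 listed probe set with other genes, and its level is not analysed here.

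Both groups were of strain C57BL/6 and were grown in medium with 10 ng/ml interleukin-7 and 20% serum. The knockout cells (DKO 1 to DKO 3) carried the label Cry 1/2 double KO, and the control cells (WT 1 to WT 3) were wild-type. Each group had 3 arrays, and their number limits the precision of every comparison. The labels state no age, sorting gate or hour of collection, and do not say whether arrays of a group came from separate animals or cultures. The p-values given here therefore cover only the variation among these arrays, and that variation may be technical.

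BAFF is a cytokine made mainly by myeloid and stromal cells, and it keeps maturing B cells alive through BAFF-R. TACI and BCMA bind both BAFF and APRIL. TACI is found on later B cell stages and on activated B cells, where it can restrain B cell numbers, and BCMA supports long-lived plasma cells. In bone marrow the early stages that grow in interleukin-7, pro-B and pre-B cells, live on the interleukin-7 receptor, and BAFF-R comes up as cells acquire a B cell receptor.

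Of the targeted genes, Cry1 read 359 to 545 on the arrays labelled DKO and 955 to 1533 on those labelled WT. Cry2 read 133 to 178 and 102 to 145 and was thus not lower in DKO; whether either probe set lies in a deleted part was not given in the sources used here, so groups are named by their labels. WT 2 stood apart from the other 5 arrays and is given separately throughout. Its Actb control was 824 times as bright at the 3' as at the 5' end, where this ratio lay between 1.47 and 2.05 elsewhere. A high ratio can be a sign of poor RNA integrity. Its median signal was 115, and that of the other arrays 44.0 to 55.3. The 7 measured pan-B genes, among them Cd79a and Cd79b of the B cell receptor complex, had signal above the array median on every array. Markers of other cell types were present too and are given beside the members below.

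Cryptochromes act on clock factors that bind E-boxes, so the stretch just before the start site of each member was searched for that motif, on both strands. The canonical E-box CACGTG was found in 0 of the 6 RefSeq promoter windows of the 5 genes, each of 250 bases on build GRCm38.p6, where 6.02% of all 32851 windows held it. The looser core CANNTG, of which CACGTG is one form, occurred in 66.2% of all windows. The window of Tnfrsf13c, the BAFF-R gene, held 4 such cores and is shown with them in capitals, since this gene and Tnfrsf13b were the members with signal far above the array median. It lies at chr15:82224381-82224630 on the minus strand and is written 5' to 3', ending at the base before the start site.
Tnfrsf13c: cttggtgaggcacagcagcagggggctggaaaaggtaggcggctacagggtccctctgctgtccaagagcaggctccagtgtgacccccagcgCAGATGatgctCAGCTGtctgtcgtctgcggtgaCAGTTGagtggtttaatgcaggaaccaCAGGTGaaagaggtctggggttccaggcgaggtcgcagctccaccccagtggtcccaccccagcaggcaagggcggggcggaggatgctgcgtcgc
The 4 cores began 157, 146, 123 and 96 bases before the start site and did not overlap. The window of Tnfrsf13b, the TACI gene, held 0 cores, and it held 1 copy of AGGTCA, the element bound by ROR and REV-ERB factors, which 14.0% of all windows held on either strand. That site began 100 bases before the start site and is shown in capitals within 30 bases on the plus strand, chr11:61126643-61126672.
Tnfrsf13b: aagcgcaggcgcAGGTCAgcagggtggctt
Of the other members, neither window of Tnfsf13b and neither Tnfrsf17 nor Tnfsf13 held AGGTCA. These matches describe letters in the reference genome, and binding of any factor was not tested.

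Values below are the deposited signal of a probe set, an intensity with no fixed unit. Differences are DKO minus WT on the scale of log2(intensity + 16) after each array was centred on its median, which understates changes of dim genes. Of the 6 member probe sets, 3 passed a filter that removed the dimmest 40% of probe sets, namely those of Tnfrsf13c and Tnfrsf13b and 1 of Tnfsf13b. None of these 3 was called by limma at an adjusted p of 0.05, and 0 had an unadjusted p under 0.05, which 3.27% of all 12627 tested genes had (4.15% without WT 2). Over all 27022 tested probe sets 2 were called, which is 0.0074%. Without WT 2 again 0 of the 3 were called, and 6 of 27022 probe sets were, which is 0.0222%.

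**Figure D1:**
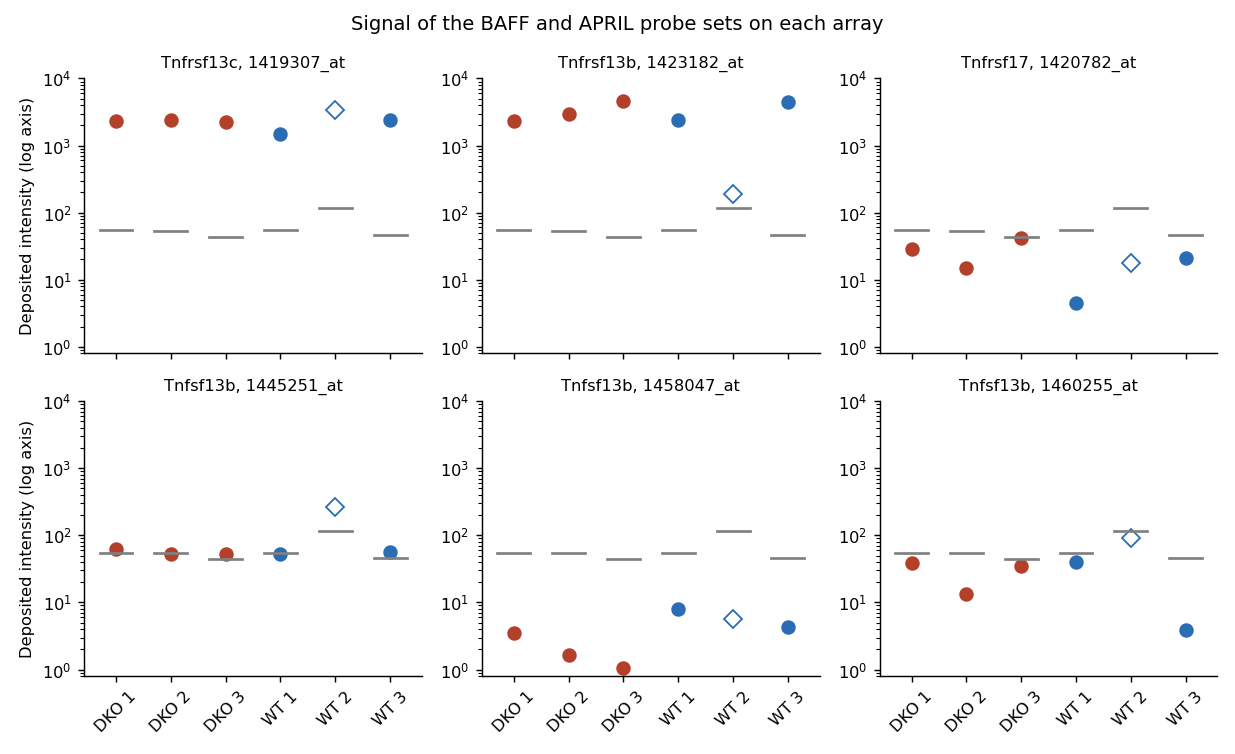
Deposited intensity (log axis) of the 6 probe sets on each of the 6 arrays, with DKO in red, WT in blue and WT 2 as an open diamond; grey bars are the median of each array. Tnfrsf13c and Tnfrsf13b lie far above the median on the 5 arrays other than WT 2, Tnfrsf17 and 2 probe sets of Tnfsf13b lie below it on all 6, and Tnfrsf13b is at 190 on WT 2 and at 2336 to 4665 on the other arrays.

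BAFF-R message was far above the array median in both genotypes, and a difference between them was not detectable with these arrays. Tnfrsf13c (probe set 1419307_at) read 2322, 2412 and 2278 in DKO 1 to DKO 3 and 1463, 3331 and 2371 in WT 1 to WT 3. In this deposited signal the 3 knockout arrays were close together, WT 3 lay among them, WT 2 was the highest and WT 1 the lowest of the 6. After centring on the log2 scale, WT 3 was the highest at 11.48, and WT 2 fell below the 3 knockout arrays, to 10.89. The DKO mean was 11.36 ± 0.11 and the WT mean 11.00 ± 0.44 on the log2 scale (SD, n = 3 each). The difference was 0.36 with a standard error of 0.40, a 95% interval of -0.59 to 1.31 and a limma adjusted p of 0.822. Without WT 2 it was 0.31 with an interval of -0.37 to 0.99 and a limma adjusted p of 0.949. Over 6 arrays it was 0.02 with quantile normalization and 0.05 without centring, and without WT 2 these settings gave 0.34 and 0.32. Only a fit that weights the arrays called it, at 0.70 with a limma adjusted p of 0.008. The estimation of these weights stopped before it converged, so this value and call are given only for completeness. That fit called 8129 probe sets and gave WT 1, the array with the lowest Tnfrsf13c, a weight of 30.9 against 0.0526 to 3.18 for the others.

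Leaving WT 2 aside, TACI message differed more between arrays of one genotype than between the genotype means. Tnfrsf13b (1423182_at) read 2336, 2926 and 4665 in DKO 1 to DKO 3, and 2390 and 4392 in WT 1 and WT 3. DKO 3 and WT 3 were the high arrays, DKO 1 and WT 1 the low ones, and each genotype had an array of both kinds. On WT 2 the signal was 190. After centring, WT 2 stood at -4.95 log2 units from the mean of the other arrays, and 1.08% of tested probe sets were further below. Tnfrsf13c on WT 2 was at -0.34 from that mean.

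The comparison of TACI therefore turned on 1 array. With all 6 arrays the DKO mean was 11.79 ± 0.64 and the WT mean 10.19 ± 2.92 (SD, n = 3 each). The difference of 1.61 had a standard error of 1.34, an interval of -1.53 to 4.75 and a limma adjusted p of 0.822. Without WT 2 the sign turned, to -0.05 with a standard error of 0.44, an interval of -1.10 to 1.00 and a limma adjusted p of 0.992. The 3' to 5' ratios of the Actb and Gapdh controls on WT 2 were 824 and 132, and the part of RNA integrity in the low Tnfrsf13b signal was not tested.

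**Figure D2:**
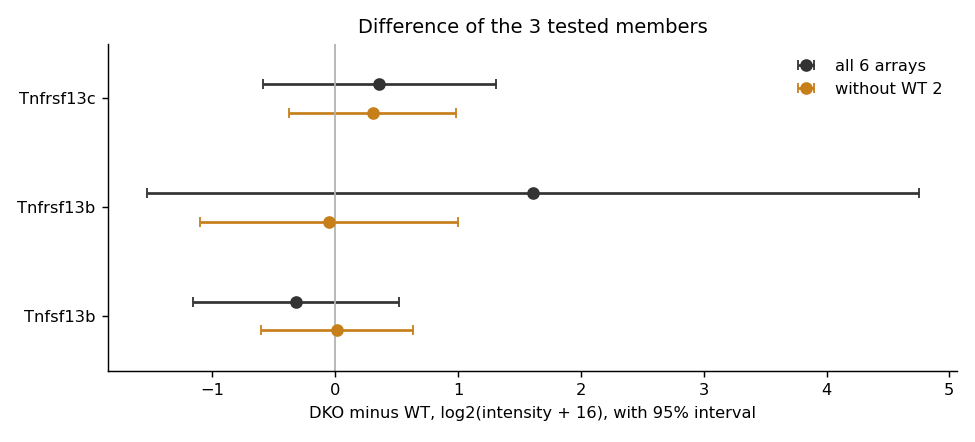
DKO minus WT with its 95% interval on the scale of log2(intensity + 16) for the 3 tested members, from the limma fit of all 6 arrays (black) and the fit without WT 2 (orange). All intervals include 0, and the estimate for Tnfrsf13b moves from 1.61 to -0.05 when WT 2 is left out.

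Among the 5 other arrays, the order of Tnfrsf13b resembled that of immature and mature B cell markers. The median of the 11 tested markers, each taken against its mean over those 5 arrays, was -1.34, -0.93 and 1.34 on DKO 1 to DKO 3 and -0.26 and 1.07 on WT 1 and WT 3, with -1.22 on WT 2. The same 2 arrays, DKO 3 and WT 3, were high. Of the 11 markers 3 were higher and 8 lower in DKO, where 70.2% of all tested genes were higher. Their median difference was -0.18, with 0 called and 0 at an unadjusted p under 0.05. Without WT 2, 2 were higher and 9 lower, against 51.8% of all genes higher, and the median difference was -0.61. In that setting too 0 were called and 0 had an unadjusted p under 0.05. Ms4a1, which encodes CD20, read 88.5, 136 and 5741 in DKO 1 to DKO 3 and 934 and 5263 in WT 1 and WT 3. Cd22, an inhibitory receptor of B cells, read 923, 1394 and 5926 in DKO and 6079 and 6089 in WT 1 and WT 3. It was thus also high on WT 1. With all 6 arrays its difference was -1.62, and another tested Cd22 probe set gave 0.77. The summed signal of all 13 markers with a probe set ranged from 12273 to 46479 in DKO and from 23947 to 43127 in WT 1 and WT 3. Fcer2a and Cr2, defining markers of mature follicular and marginal zone B cells, were too dim to be tested.

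The early B cell markers and the pan-B markers had another order over the arrays. Dntt, the terminal transferase of pro-B cells, read 10162, 10083 and 1079 in DKO 1 to DKO 3 and 1314 and 495 in WT 1 and WT 3. Rag1, which encodes a subunit of the recombinase that assembles B cell receptor genes, ran the other way, with 1513, 1200 and 2472 in DKO and 2855 and 4053 in WT 1 and WT 3, a difference of -0.06 with all 6 arrays and -1.05 without WT 2 (limma adjusted p of 0.949). The median of 11 pro-B and pre-B markers was 0.32, 0.41 and -0.33 on the knockout arrays and -0.06 and -0.15 on WT 1 and WT 3. The median of the 7 pan-B markers stayed between -0.09 and 0.08 on these 5 arrays, and on WT 2 it was -1.81. In DKO 8 of the 11 pro-B and pre-B markers and 5 of the 7 pan-B markers were higher, where 70.2% of all tested genes were. None was called, and 1 in each list had an unadjusted p under 0.05, against 3.27% of all genes. Without WT 2, 7 of 11 and 3 of 7 were higher, against 51.8%, and the median difference of the pan-B markers turned from 0.32 to -0.05. In that setting 0 were called, and 1 of the 7 pan-B markers had an unadjusted p under 0.05. So did 3 of the 11 pro-B and pre-B markers, with Dntt higher and Rag1 and Rag2 lower, against 4.15% of all genes. In bulk RNA a smaller number of cells of 1 stage and less RNA per cell cannot be told apart, and the part of the B cell stages in the Tnfrsf13b signal was not tested. The profile of Tnfrsf13c was flatter, with a span of 0.87 log2 units over the 5 arrays against 1.24 for Tnfrsf13b.

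**Figure D3:**
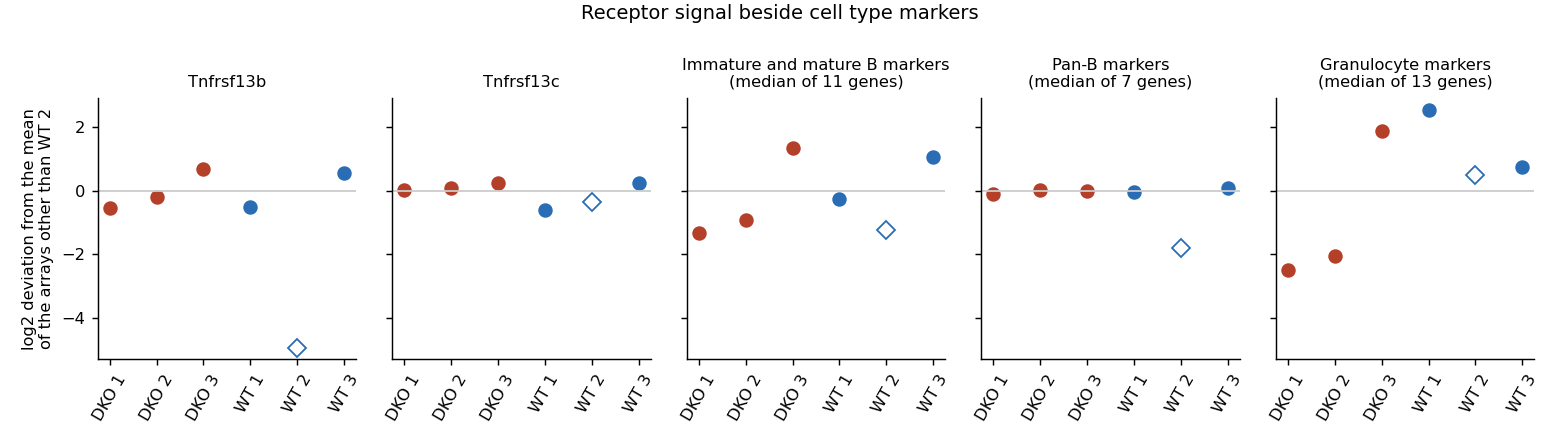
Log2 deviation from the mean of the 5 arrays other than WT 2, for Tnfrsf13b, Tnfrsf13c and the median of 3 marker lists, with DKO in red, WT in blue and WT 2 as an open diamond. Tnfrsf13b and the immature and mature B markers are highest on DKO 3 and WT 3, the pan-B median is near 0 on all arrays but WT 2, and the granulocyte median is lowest on DKO 1 and DKO 2.

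Tnfrsf13b was the only tested member that spanned over 1 log2 unit on the 5 arrays, so genes of like pattern were looked for with it alone. Of 12624 other genes, the 3 closest were Kptn, Ly86 and Zfp113, with root mean square differences of 0.06, 0.07 and 0.08 log2 units over the 5 arrays. Ly86, which encodes MD-1, the partner of the B cell surface protein CD180, read 1447, 1979 and 2923 in DKO 1 to DKO 3 and 1662 and 3056 in WT 1 and WT 3. Kptn read 197, 259 and 370 in DKO and 194 and 371 in WT 1 and WT 3. Over all 6 arrays the distances of these 3 genes were 0.43, 1.63 and 1.75. Kptn was low on WT 2 as Tnfrsf13b was (24.1), and Ly86 was not (2831).

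BCMA was dim on every array. Tnfrsf17 (1420782_at) read 28.6, 14.7 and 41.8 in DKO 1 to DKO 3 and 4.43, 17.8 and 21.2 in WT 1 to WT 3. All 6 values lay below the median of their array, and the groups overlapped, with DKO 2 below WT 3. The probe set did not pass the filter and was not tested in the main fit. Its mean difference was 0.85 with all 6 arrays and 0.62 without WT 2. A fit of all 6 arrays with no filter gave it an interval of -0.14 to 1.84 and a limma adjusted p of 0.873. Plasma cell markers were not uniformly dim. Xbp1, a transcription factor needed for secretion, read 7522 to 14170 in DKO and 8977 to 23096 in WT, and Prdm1, the regulator that defines plasma cells, read 63.6 to 79.2 and 77.7 to 109. Jchain, the joining chain of secreted antibody, was picked with its values known and read 6321, 2655 and 1907 in DKO 1 to DKO 3 and 314, 550 and 82.3 in WT 1 to WT 3. Its groups did not overlap, and its difference was 3.91 with a limma adjusted p of 0.428. The 11 plasma cell markers had summed signals of 28156 to 40825 in DKO and 30771 to 44794 in WT. Of them 7 were higher and 4 lower in DKO, where 70.2% of all tested genes were higher. None was called, and 2 had an unadjusted p under 0.05, against 3.27% of all genes. Without WT 2, 6 were higher, against 51.8%, and 3 had an unadjusted p under 0.05, against 4.15%. The part of these markers in the Tnfrsf17 values was not tested.

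BAFF message was near or below the array median by each of its 3 probe sets on the arrays other than WT 2. The brightest of them (1445251_at) read 62.7, 53.4 and 52.5 in DKO 1 to DKO 3 and 52.9, 265 and 56.0 in WT 1 to WT 3. The 5 arrays other than WT 2 lay within 0.24 log2 units, and WT 2 alone was high. The difference was -0.32 with a standard error of 0.36, an interval of -1.16 to 0.52 and a limma adjusted p of 0.822. Without WT 2 it was 0.02 with an interval of -0.61 to 0.64 and a limma adjusted p of 0.996.

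The other 2 probe sets of Tnfsf13b were below the median on all 6 arrays and were not tested in the main fit. With no filter the limma adjusted p was 0.955 for 1460255_at and 0.985 for 1458047_at. One (1460255_at) read 39.0, 13.5 and 35.0 in DKO and 40.3, 92.5 and 3.90 in WT, with the lowest deposited signal on WT 3 and the highest on WT 2. The other (1458047_at) read 3.56, 1.67 and 1.07 in DKO and 7.90, 5.69 and 4.33 in WT. Its values did not overlap between DKO 1 to DKO 3 and WT 1 and WT 3 after centring, and they overlapped when WT 2 was included. It was the only one of the 6 member probe sets without overlap in that setting, where 18.5% of tested probe sets had none. With all 6 arrays the groups overlapped after centring in all 6 member probe sets, and 10.3% of tested probe sets had no overlap. Before centring, the deposited signals of 1458047_at did not overlap with all 6 arrays.

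Markers of myeloid cells, which can make BAFF, differed widely between the 5 arrays other than WT 2, on which the brightest BAFF probe set stayed within 0.24 log2 units. The summed signal of the 14 granulocyte markers with a probe set was 647, 645 and 27986 in DKO 1 to DKO 3 and 76430, 179451 and 19379 in WT 1 to WT 3. That of 12 macrophage and monocyte markers was 25703, 17436 and 29354 in DKO and 51072, 105409 and 20542 in WT. Of tested markers, 0 of 13 granulocyte genes and 1 of 12 macrophage and monocyte genes were higher in DKO, against 70.2% of all genes. None of these was called, and 6 granulocyte and 2 macrophage and monocyte genes had an unadjusted limma p under 0.05, against 3.27%. Without WT 2 the counts higher were the same, against 51.8%. In that setting 6 granulocyte and 0 macrophage and monocyte genes had an unadjusted p under 0.05, against 4.15%. Of the 6 granulocyte genes with all 6 arrays, Camp, Lcn2 and Mmp9 lay above the array median on the WT arrays and DKO 3 alone. They passed the filter largely through the arrays where they are high, which limits the comparison with all genes. S100a8 and S100a9, abundant proteins of neutrophils, read 190, 186 and 10377 and 130, 123 and 7817 in DKO 1 to DKO 3. In WT they ranged from 8306 to 94059 and from 5600 to 69958. Csf1r and Adgre1, a receptor and a surface protein of macrophages, read 910 to 2703 and 173 to 677 in DKO and 1819 to 26294 and 417 to 910 in WT. The BAFF signal lay close to the array median, so its steadiness says nothing of which cells it came from. WT 2, the array with the highest BAFF signal, also had the highest granulocyte and macrophage sums, which are not centred. After centring, its median deviation was 0.50 for granulocyte and 0.03 for macrophage and monocyte markers. These were below the values of WT 1 (2.56 and 1.08), DKO 3 (1.90 and 0.67) and WT 3 (0.75 and 0.04). The part of myeloid cells in the BAFF signal of WT 2 was not tested. Of dendritic and plasmacytoid cell markers, 8 of 9 tested were higher in DKO, against 70.2% of all genes, and 6 of 9 without WT 2, against 51.8%. In both settings 0 were called and 3 had an unadjusted p under 0.05. Of these 3, Itgax and Batf3 lay above the array median on DKO arrays alone, so they passed the filter largely through the group where they are high. Itgax read 58.4 to 107 in DKO and 36.2 to 53.5 in WT, and Flt3 46.2 to 63.2 and 15.5 to 79.4. Of 13 stromal and endothelial markers 6 were below the median on all arrays, among them Cxcl12, the chemokine of marrow stroma, at 10.3 to 105, while Lepr was at 16.6 to 90.5 and the endothelial Pecam1, picked with its values known, was above the median on all 6 at 135 to 747. Stromal and endothelial markers split 5 higher and 3 lower, and erythroid and megakaryocyte markers 3 higher and 4 lower, against 70.2% of genes higher. None was called, and 0 had an unadjusted limma p under 0.05. Without WT 2 the splits were 6 to 2 and 3 to 4, against 51.8%, and 1 gene, Ppbp, had an unadjusted p under 0.05. Of the erythroid and megakaryocyte list, Hba-a1 read 4.46 to 24.6 and was too dim to be tested, and Klf1 read 21.0 to 205. Pf4 and Ppbp, picked with their values known, differed by -1.96 and -2.03, and Gp9 and Itga2b by 0.38 and -0.13.

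Signalling genes downstream of the receptors showed no called difference. Of the 13 tested genes that act between receptor and nucleus, 12 were higher and 1 lower in DKO, 0 were called and 0 had an unadjusted p under 0.05. Their median difference was 0.56, while over all 12627 tested genes it was 0.30 and 70.2% were higher. The median of all tested probe sets depended on the scaling, with 0.21 after centring, -0.02 after quantile normalization and -0.10 without centring, and the median of these 13 genes was 0.56, 0.19 and 0.25. Without WT 2, 11 were higher and 2 lower, with a median of 0.12 against 0.01 for all genes, of which 51.8% were higher. Birc2, which encodes cIAP1, a ubiquitin ligase that holds the alternative NF-kB kinase NIK in check, read 3413, 3321 and 1704 in DKO 1 to DKO 3 and 1456, 1213 and 1900 in WT 1 to WT 3. DKO 3 lay below WT 3, and the difference was 1.15 with a limma adjusted p of 0.822 (0.67 without WT 2).

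Traf3ip2, which encodes the adaptor Act1, differed by 0.81, and Rela, the p65 subunit of NF-kB, by 0.94, and without WT 2 these were 0.39 and 0.15. The alternative NF-kB genes were named after their values were seen. Map3k14, which encodes NIK, differed by 0.23, Nfkb2 by 0.84 and Relb by 0.20, and without WT 2 by 0.08, 0.11 and -0.44. With all 6 arrays, another tested probe set gave 0.84 for Map3k14 and another -0.39 for Nfkb2. Traf2, a partner of cIAP1, was at 57.6 on WT 2 and between 738 and 1164 elsewhere, so its difference was 1.55 with WT 2 and 0.03 without it. The list of genes looked for also held Traf3, Chuk, Nfkb1 and Camlg, which are not analysed here.

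Genes that process the ligands or shed the receptors, with the proteoglycans that bind APRIL, gave 6 higher and 4 lower of 10 tested. Of all genes 70.2% were higher. None of the 10 was called, and 1 had an unadjusted limma p under 0.05, against 3.27% of all genes. Without WT 2 the split was the same, against 51.8%, and 0 had an unadjusted p under 0.05. The median difference of the 10 genes was 0.47 with all 6 arrays and 0.03 without WT 2. Sdc1, the proteoglycan CD138, read 388, 376 and 658 in DKO 1 to DKO 3 and 1161, 3501 and 638 in WT 1 to WT 3, a difference of -1.24 with a limma adjusted p of 0.822 (-0.91 without WT 2). DKO 3 lay above WT 3, so the groups overlapped, and 3 other Sdc1 probe sets gave differences of -0.62 to 0.40. Sdc4 read 293 on WT 2 and 3908 to 7461 elsewhere, and its difference was 1.89 with that array and 0.25 without it. Another tested Sdc4 probe set gave -0.40 with all 6 arrays. Adam10, a protease that sheds TACI, differed by 0.57 (0.35 without WT 2), and Furin, which cuts both ligands from their precursors, by -0.12 (-0.02).

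Survival and differentiation genes downstream of BAFF gave 6 higher and 3 lower of 9 tested, against 70.2% of all genes. None was called, and 0 had an unadjusted limma p under 0.05. Without WT 2 the split was the same, against 51.8%. In that setting 0 were called, and 1, Pim2, had an unadjusted p under 0.05, against 4.15% of all genes. The median of the 9 genes was 0.10 with all 6 arrays and 0.09 without WT 2. With all 6 arrays it turned to -0.05 with quantile normalization and -0.21 without centring. Mcl1, the survival factor on which B cells depend, read 11071, 10852 and 8383 in DKO and 9600, 7842 and 9259 in WT, a difference of 0.49 (0.07 without WT 2). Akt1 differed by 1.08 (0.28) and Bcl2 by 0.34 (0.27). With all 6 arrays, other tested probe sets gave -0.16 to 1.83 for Mcl1, 0.08 to 0.84 for Akt1 and -0.39 to 0.37 for Bcl2. The survival kinase Pim2, picked with its values known, read 890, 768 and 813 in DKO and 2336 and 1066 in WT 1 and WT 3. Its difference was -0.17 with all 6 arrays, and -0.95 without WT 2 at a limma adjusted p of 0.949.

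**Figure D4:**
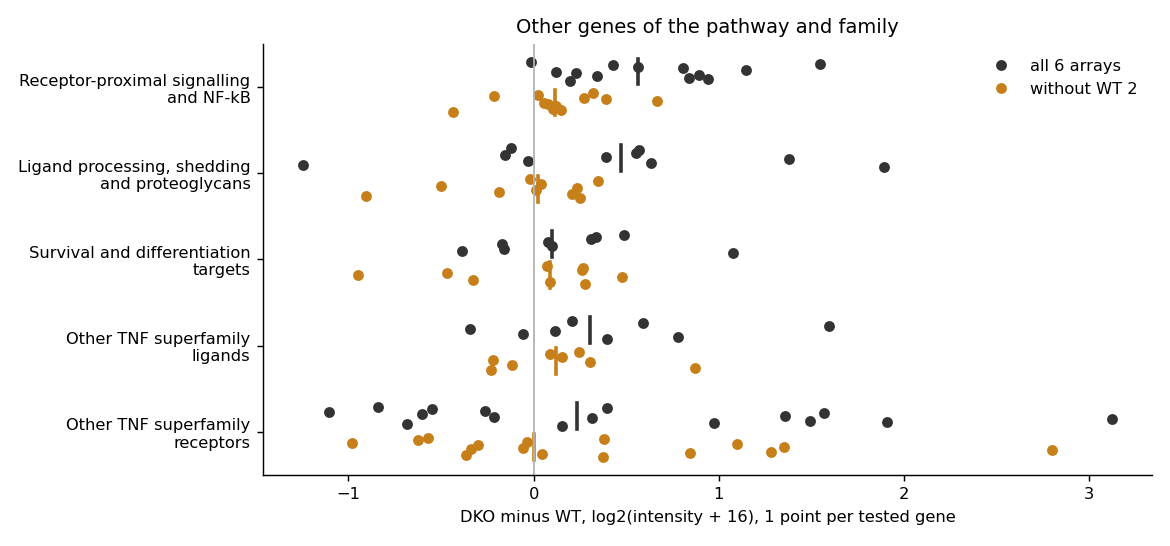
DKO minus WT on the scale of log2(intensity + 16) for each tested gene of 5 lists, with all 6 arrays (black) and without WT 2 (orange); vertical bars are list medians. Leaving out WT 2 brings the medians to between 0.00 and 0.12; the point at 3.12 with all 6 arrays is Tnfrsf14, whose WT signal lay below the array median.

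Many of the other TNF superfamily ligands were dim. Of 13 other ligands with a probe set, 5 were below the median on all arrays, among them Cd40lg and Fasl of T cells. Of the 8 tested, 6 were higher and 2 lower, with 0 called, 0 at an unadjusted p under 0.05 and a median of 0.30 that was -0.01 without centring. Without WT 2 the median was 0.12 with 5 higher and 3 lower. Over all genes 70.2% were higher with all 6 arrays and 51.8% without WT 2. Ltb, the lymphotoxin that shapes lymphoid tissue, was at 17.7 on WT 2 and between 261 and 702 elsewhere. Its difference was 1.60 with that array and 0.16 without it. Lta differed by 0.59 (0.09) and Tnfsf4 by -0.34 (-0.22).

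Of the other TNF superfamily receptors 0 were called, and 4 of 16 tested had an unadjusted p under 0.05, against 3.27% of all genes (3 of 16 against 4.15% without WT 2). Among the 4, Tnfrsf9 lay above the array median on DKO 1 and DKO 2 alone, and Tnfrsf14 on the DKO arrays alone. Both passed the filter largely through the group where they are high, which limits the comparison of these counts with all genes. Of the 16, 9 were higher and 7 lower in DKO with a median of 0.23, which was 0.00 with quantile normalization and -0.08 without centring. Without WT 2 there were 8 on each side with a median of 0.00. The share of all genes higher was 70.2% with all 6 arrays and 51.8% without WT 2. Tnfrsf14, the receptor HVEM of LIGHT and BTLA, read 173, 293 and 89.8 in DKO 1 to DKO 3 and 12.1, 10.3 and 8.28 in WT 1 to WT 3, so its groups did not overlap. All its WT values lay below the array median, and it passed the filter through the DKO arrays, so the size of its difference depends on the pseudocount. On that scale it was 3.12 with a limma adjusted p of 0.298, and without WT 2 2.80 with a limma adjusted p of 0.202. Tnfrsf18, the receptor GITR, read 534, 663 and 197 in DKO and 142, 207 and 177 in WT, with the deposited signal of DKO 3 below that of WT 2. Fas, the death receptor, read 108, 256 and 87.1 in DKO and 80.4, 36.4 and 34.8 in WT, a difference of 1.57 (1.10 without WT 2) with a limma adjusted p of 0.822. The T cell receptor gene Cd3d read 155, 295 and 8.43 in DKO 1 to DKO 3 and 7.90 to 14.0 in WT. Cd3e of the same complex read 63.6, 102 and 4.43 in DKO and 12.6, 124 and 6.80 in WT 1 to WT 3, with the highest deposited signal on WT 2. Cd2, picked with its values known, had another order, with 46.8, 109 and 1528 in DKO and 534, 99.4 and 2013 in WT. Of the 10 tested T and NK cell markers 8 were higher in DKO, with 0 called and 5 at an unadjusted p under 0.05, against 3.27% of all genes. Without WT 2, 6 of 8 were higher, with 3 at an unadjusted p under 0.05 against 4.15%. Of the 5, Cd3d, Cd3g, Klrd1 and Gzmb lay above the array median on DKO 1 and DKO 2 alone. They passed the filter largely through the group where they are high, so these counts are not comparable with the shares of all genes. The median deviation of the 10 markers was 0.84, 1.25 and -0.62 on DKO 1 to DKO 3 and -0.74 to -0.49 on the WT arrays, with summed signals of 2345 to 4459 in DKO and 1338 to 2580 in WT, and their part in these receptor values was not tested.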

How the data were processed

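RNA of bone marrow cells was hybridised to 6 one-colour oligonucleotide arrays. The authors deposited a linear intensity for every probe set on each array. Per the submitters' processing notes MAS5 produced these numbers. Its version, the detection calls and the genome build were not given in the sources used here. Of 45101 probe sets 64 are controls. Of the other 45037 a single symbol was listed for 34945, several for 932 and none for 9160, and 34741 of the first matched the gene table of GRCm38.p6.

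Array medians spanned 1.13 log2 units, so log2(intensity + 16) was centred on each array's median. The brighter probe sets, those over percentile 40 of mean signal on the arrays of a fit, went into limma 3.58.1 (R 4.3.3) with group as the only term and variances following mean signal. Tests were two-sided, p was adjusted over all 27022 tested probe sets (Benjamini-Hochberg), and intervals are 95% intervals of the fit. The fit was tested on simulated data. Python 3.11.15, numpy 2.4.6, pandas 2.3.3 and matplotlib 3.10.9 made tables, motif searches and figures.

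A gene in a list is its probe set with the highest mean signal. Counts of a list are to be read beside all tested genes, of which 70.2% were higher in DKO. Of all tested genes 3.27% had an unadjusted limma p under 0.05. Without WT 2 these shares were 51.8% and 4.15%. Named by rule are all member probe sets, called genes of each pathway list or else the 3 with the smallest p, and the first 2 genes of each marker list; any other gene is an example picked with its values known. The members and lists were chosen with earlier results of these data known. Alternatives were quantile normalization, no centring, pseudocounts of 1 and 64, no filter or percentile 60, array weights, each array left out, and the replicate number as a block. Quantile normalization and no centring without WT 2 were added after seeing the data.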

Additional observations from a re-analysis of the deposited data

How the results depend on the processing

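No alternative changed the call of Tnfrsf13b or Tnfsf13b, and with the filter at percentile 60 Tnfsf13b was not tested. With 1 array left out in turn, the difference of Tnfrsf13c was 0.17 to 0.60, that of Tnfrsf13b -0.0486 (without WT 2) to 2.70 (without WT 3), and that of Tnfsf13b -0.55 (without WT 1) to 0.0154 (without WT 2). Without WT 2, quantile normalization and no centring gave -0.0254 and -0.0308 for Tnfrsf13b and 0.0221 and 0.0332 for Tnfsf13b, the opposite sign to that with 6 arrays. Array weights gave 0.70 for Tnfrsf13c with a limma adjusted p of 0.008, where the other settings gave 0.569 to 0.99, and 0.0651 for Tnfsf13b. The weights were those at which the estimation stopped without converging, so that call is not one of an ordinary alternative. That fit called 8129 probe sets, with a weight of 30.9 for WT 1 and 0.0526 for WT 2.

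The number of probe sets called was 2 with all 6 arrays, 0 to 6 with 1 array left out (6 without WT 2), 0 with quantile normalization, no centring, a pseudocount of 1 or the replicate block, and 1 with the filter at percentile 60. Without WT 2 it was 5 with the replicate block, with quantile normalization and with no centring. The labels do not say whether the replicate numbers pair the arrays. Correlations of same-numbered deviations were -0.15, 0.00 and 0.33, and those of other numbers ran from -0.39 to 0.32. The value of 0.00 involves WT 2, and that of 0.33, for DKO 3 and WT 3, was the highest. These arrays also had the highest correlation of signal, 0.98, so the check cannot decide on pairing. Whether they share a batch was not tested. With the replicate block Tnfrsf13c stayed at 0.36. With the block and without WT 2, Tnfsf13b was 0.0737 and Tnfrsf13b 0.0408 with a standard error of 0.19. Of the pathway genes limma called 0 with quantile normalization, with no centring and with any 1 array left out. The median of the other TNF receptors was -0.12 without DKO 1, and that of the survival and differentiation genes -0.01 without DKO 3. Low signal limits Tnfrsf17 and Tnfsf13b, whose values lie near or below the array median.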
